A study of Mus musculus with 35 samples.

Results

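Transcripts of the colony-stimulating factor receptors were measured in microglia sorted from 3 brain regions of the mouse. The 5 genes are Csf1r, Csf2ra, Csf2rb, Csf2rb2 and Csf3r. They were taken as a family by gene symbol, and all 5 were found among the 21236 genes of the filtered count table. Microglia are the macrophages that live within brain tissue. The samples came from adult mice that were heterozygous for Tmem119-2A-CreERT2 and for the reporter Ai14(RCL-tdTomato)-D and had received tamoxifen, so that cells in which Tmem119 drove the recombinase became fluorescent, and the fluorescent cells were collected by flow cytometry. There were 12 samples of midbrain, 12 of striatum and 11 of prefrontal cortex (PFC), from 6 male and 6 female mice that each gave 1 sample per region, except that mouse 3, a male, had no PFC sample. Genotype and tamoxifen were common to all groups. There was no group without tamoxifen, so that an effect of the drug or of the transgenes on a level cannot be told apart from it.

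Colony-stimulating factors are secreted proteins that keep myeloid cells alive and direct their growth. CSF1R, the receptor tyrosine kinase for CSF1 and interleukin 34, is required for the survival of microglia. CSF2RA is the ligand-binding chain of the receptor for granulocyte-macrophage colony-stimulating factor (GM-CSF) and signals only together with CSF2RB, the common beta chain, which also serves the receptors for interleukin 3 and interleukin 5. Mice carry a second beta chain gene, Csf2rb2, whose product works with the interleukin 3 receptor alone. CSF3R is the receptor for granulocyte colony-stimulating factor and is best known from neutrophils. Beta chains and CSF3R have no kinase of their own and signal through JAK kinases and STAT proteins.

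In the GRCm38 annotation (GENCODE M21) Csf3r (ENSMUSG00000028859) lies at chr4:126024550-126044440 on the plus strand. Csf2ra (ENSMUSG00000059326) lies at chr19:61223957-61228429 on the minus strand. The beta chain genes are neighbours that point away from each other, Csf2rb2 (ENSMUSG00000071714) at chr15:78282507-78305721 on the minus strand and Csf2rb (ENSMUSG00000071713) at chr15:78325752-78353847 on the plus strand. All 5 are protein coding.

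Csf2rb and Csf2rb2 are near copies, and how far reads of 50 bases can tell them apart bears on every value given for them. Their annotated coding sequences are 2691 and 2637 bases long, and 95.21% of the aligned bases outside gaps are identical. There are 15 identical runs of at least 50 bases, the longest of 242 bases. Of all 50-base windows in the transcripts of Csf2rb2, 18.9% occur unchanged in another gene, and 12.3% of those of Csf2rb. The following 90 coding bases, all in exon 4, hold the most differences, 15, which are printed in capitals. Csf2rb is shown from chr15:78338890-78338979 on the plus strand and Csf2rb2 from chr15:78294352-78294441 on the minus strand.
Csf2rb: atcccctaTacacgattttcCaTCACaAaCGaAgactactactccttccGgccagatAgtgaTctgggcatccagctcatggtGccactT
Csf2rb2: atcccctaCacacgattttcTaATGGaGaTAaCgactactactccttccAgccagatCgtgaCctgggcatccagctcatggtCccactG
Another stretch of 90 coding bases, which spans exons 6 and 7 and the intron between them (chr15:78340785-78341363 for Csf2rb and chr15:78291946-78292524 for Csf2rb2), holds 0 differences, so that a read lying within it matches both genes.
Csf2rb and Csf2rb2: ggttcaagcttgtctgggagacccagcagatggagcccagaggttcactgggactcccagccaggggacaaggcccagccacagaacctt
How such reads were counted is not given in the sources used here. Csf2ra shared no 50-base window with another gene. Csf3r shared 10.8% of its windows, 325 of 395 of them with the processed pseudogene AC105061.2, which has no row in the table. Csf1r shared 14.3%, all with Hmgxb3 on the opposite strand, which overlaps it by 873 exonic bases. Hmgxb3 itself had 945 to 2253 counts per sample, against at least 227706 for Csf1r.

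Total counts per sample ran from 37680501 to 54131421, and a gene with 3 counts had 0.0561 to 0.0789 CPM, the unit used throughout, in which counts are scaled to the size of the library with TMM factors. Markers of other cells were low against a summed level of 28870 CPM in the midbrain, 30560 in the striatum and 29840 in the PFC for 7 microglial markers. Of 9 neutrophil markers, 3 had a row in the table, and their sum stayed at or below 0.962 CPM in every sample but the PFC sample of mouse 1, which had 42.2 CPM. Ly6g, Mpo, Elane and Cxcr2 had no row. A sum of 6 border macrophage markers reached 123.4 CPM in the midbrain sample of mouse 6, with Ms4a7 at 97.9 CPM, and 11.4 CPM or less in all samples of striatum and PFC. Sums for monocytes, dendritic cells and lymphocytes reached 7.91, 20.3 and 13.6 CPM. Astrocyte, oligodendrocyte and neuronal sums had maxima of 466.3, 721 and 23.0 CPM, and an endothelial and pericyte sum one of 54.5 CPM. None of 5 mast cell markers had a row. One column of counts is named for the PFC of mouse 3 while the label of that sample gives striatum, which was followed. Some results for the receptors are given with and without these samples.

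All 5 receptors were detected in all 35 samples, at levels that spanned a wide range. Per kilobase of exon, Csf1r had a mean of 1378 ± 235 CPM (SD, n = 35), rank 35 of 21103 genes with a known length. Csf3r followed at 88.4 ± 23.0 CPM per kilobase (rank 523), then Csf2ra at 13.3 ± 4.14 (rank 3335), Csf2rb at 5.65 ± 1.47 (rank 5798) and Csf2rb2 at 1.84 ± 0.507 (rank 9063). That order held in each of the 35 samples, so no pair of neighbours in it overlapped within a sample. The narrowest gap was that between Csf2ra and Csf2rb, with 1.21 to 4.16 times as much Csf2ra per kilobase. That order rests on the division by exon length. Without it the mean of Csf2rb, 41.1 CPM, was above that of Csf2ra, 38.2 CPM. Csf1r alone took 0.488% to 1.09% of all counts of a sample.

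For each gene, brain region was tested over all 35 samples in an additive model with sex (edgeR quasi-likelihood F-test, Benjamini-Hochberg adjusted over all genes). Csf2ra, Csf1r and Csf2rb passed with an adjusted p of 2.62e-05, 0.0281 and 0.0319, while Csf2rb2 (adjusted p = 0.184) and Csf3r (adjusted p = 0.896) did not. That is 3 of 5 receptors, where 8.89% of all genes tested had a region effect. A pair of regions was then called different with an unadjusted p under 0.05 and a fold change over 1.2 in addition. The 3 genes did not share a direction. Csf2ra had its highest mean in the midbrain and its lowest in the PFC, whereas Csf1r and Csf2rb were highest in the striatum. Markers of other cells also differed between the regions. For 5 astrocyte markers the mean sum was 226 CPM in the midbrain, 333.6 in the striatum and 332.7 in the PFC, the order of Csf1r. For 5 endothelial and pericyte markers it was 23.39, 31.55 and 25.48 CPM, again the order of Csf1r, and for 6 neuronal markers 3.74, 8.13 and 12.7 CPM. For 5 markers of the oligodendrocyte lineage it was 328.9, 398.5 and 274.7 CPM, the order of Csf2rb and Csf2rb2, and for 4 lymphocyte markers 3.37, 1.51 and 0.786 CPM, the order of Csf2ra. The 7 microglial markers also followed the order of Csf1r, at 28870, 30560 and 29840 CPM. Border macrophage markers had mean sums of 16.8, 6.59 and 7.24 CPM, of which the midbrain value includes the 123.4 CPM of mouse 6. Dendritic cell markers had 8.59, 6.08 and 7.33 CPM and monocyte markers 3.25, 3.53 and 4.90 CPM. The part of any of these cells in the results was not tested.

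**Figure D1:**
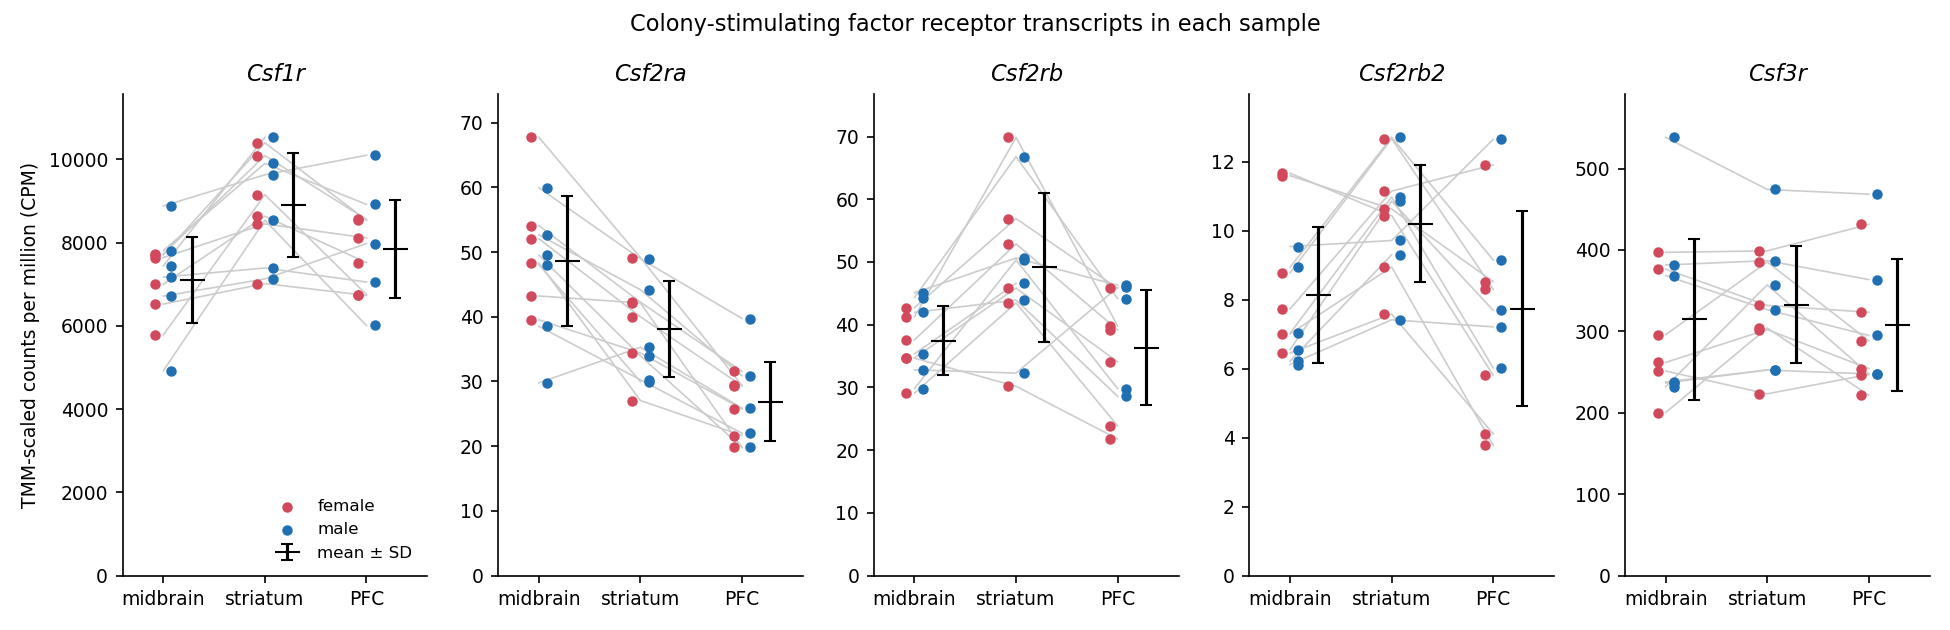
CPM of each receptor gene (y axis, from 0) in midbrain, striatum and PFC (x axis), 1 point per sample coloured by sex, with lines joining samples of 1 mouse and bars for the mean ± SD. Csf2ra falls from a mean of 48.6 CPM in the midbrain to 26.9 CPM in the PFC, while Csf1r and Csf2rb peak in the striatum and Csf3r stays level.

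Csf2ra, the ligand-binding chain of the GM-CSF receptor, showed the largest regional difference of the 5. Its lowest, median and highest values were 29.8, 48.9 and 67.7 CPM in the midbrain, 27.1, 37.6 and 49.1 CPM in the striatum, and 19.8, 25.9 and 39.7 CPM in the PFC. The ranges overlapped, although 8 of the 11 PFC samples lay below the lowest midbrain sample. Within mice the order midbrain, striatum, PFC held in 10 of the 11 mice with all regions, and in mouse 5 the striatum was above the midbrain.

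From a mean of 48.6 ± 10.1 CPM in the midbrain (SD, n = 12), Csf2ra was lower in the PFC at 26.9 ± 6.07 CPM (n = 11), a log2 fold change of -0.85 (SE 0.123, 95% interval -1.10 to -0.60, edgeR adjusted p = 7.06e-06). It was lower in 11 of 11 mice. It was the 1 receptor called in this comparison, in which 5.99% of all genes were called and 3.24% were called lower. The striatum lay between, at 38.1 ± 7.39 CPM (n = 12). Against the midbrain it was lower by a log2 fold change of -0.35 (SE 0.119, edgeR p = 0.00575, adjusted p = 0.0664), in 11 of 12 mice, and against the PFC it was higher by 0.50 (SE 0.123, adjusted p = 0.0411), in 11 of 11 mice. These 3 calls held when each mouse was left out in turn, and in mice 1 to 6 and mice 7 to 12 fitted apart. Between the midbrain and the PFC the log2 fold change was -0.83 without the PFC sample of mouse 1 and -0.86 without the midbrain sample of mouse 6. In such bulk samples less RNA per cell and fewer cells with the transcript cannot be told apart.

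Csf1r, the receptor for CSF1 and interleukin 34, had a higher level in striatum than midbrain in every mouse. The gene (ENSMUSG00000024621) lies at chr18:61100598-61132149 on the plus strand. Its lowest, median and highest values were 4923, 7308 and 8881 CPM in the midbrain, 7017, 8894 and 10530 CPM in the striatum, and 6010, 7977 and 10100 CPM in the PFC. All ranges overlapped, with 6 of the 12 striatal samples above the highest midbrain sample. Means were 7110 ± 1036 CPM in the midbrain, 8906 ± 1254 CPM in the striatum (SD, n = 12 each) and 7843 ± 1176 CPM in the PFC (n = 11).

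The log2 fold change of Csf1r between striatum and midbrain was 0.33 (SE 0.0842, 95% interval 0.15 to 0.50, edgeR adjusted p = 0.0125), a 1.25-fold difference that was higher in 12 of 12 mice. In the PFC the gene was above the midbrain in 10 of 11 mice by a log2 fold change of 0.14 (95% interval -0.03 to 0.32, edgeR adjusted p = 0.44), which was not called. The striatum exceeded the PFC by 0.18 (edgeR p = 0.0406, adjusted p = 0.399), under the minimum fold change. The region effect sat close to its threshold, with an adjusted p of 0.0151 to 0.0869 when each mouse was left out in turn, past the threshold in 6 of 12 fits and lost without mouse 2, 3, 4, 9, 10 or 12. Without the striatal sample of mouse 3 alone, whose names disagree, the adjusted p for region was 0.0595 and the log2 fold change between striatum and midbrain 0.30. In mice 1 to 6 and mice 7 to 12 fitted apart that log2 fold change was 0.41 and 0.25, with an adjusted p for region of 0.0998 and 0.197. A paired edgeR fit, with mouse as a replicate block in place of sex, gave Csf1r an adjusted p for region of 0.000209. In it 14% of all genes had a region effect. The striatum was called over the midbrain there, with a log2 fold change of 0.33 (edgeR adjusted p = 9.35e-05).

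Csf2rb, the common beta chain, was higher in striatum than in both other regions. Its lowest, median and highest values were 29.1, 36.5 and 45.1 CPM in the midbrain, 30.2, 48.5 and 69.9 CPM in the striatum, and 21.8, 39.2 and 46.3 CPM in the PFC. The ranges overlapped, and 8 of the 12 striatal samples were above every midbrain sample. Means were 37.5 ± 5.54 CPM, 49.1 ± 11.8 CPM and 36.3 ± 9.15 CPM (SD, n = 12, 12 and 11). Between striatum and midbrain the log2 fold change was 0.39 (SE 0.127, edgeR adjusted p = 0.0499), and 10 of 12 mice were higher. Csf1r, Csf2ra and Csf2rb were the 3 receptors called in this comparison, 2 of them higher in the striatum and 1 lower, where 6.47% of all genes were called, 3.5% higher and 2.98% lower.

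Between striatum and PFC, Csf2rb had a log2 fold change of 0.44 (SE 0.130, edgeR p = 0.00183, adjusted p = 0.113), with 10 of 11 mice higher. Csf2ra and Csf2rb were the 2 receptors called there, both higher in the striatum, where 3.14% of all genes were called and 2.31% were called higher. Midbrain and PFC did not differ detectably (-0.04, 95% interval -0.31 to 0.22, edgeR adjusted p = 0.937). The calls of Csf2rb were lost without mouse 2, 4, 5, 7, 9, 10 or 12, when the adjusted p for region was 0.0506 to 0.0874, and in mice 1 to 6 alone, when it was 0.287. Mouse as a replicate block gave Csf2rb an edgeR adjusted p for region of 0.00193, where 14% of all genes passed. In that fit the striatum was called over the midbrain (log2 fold change 0.37, adjusted p = 0.00708) and over the PFC (0.45, adjusted p = 0.00864). The PFC sample of mouse 1, which held the neutrophil markers, had 45.95 CPM of Csf2rb, the second highest of the PFC samples. Without it the log2 fold change between striatum and PFC was 0.47 and the adjusted p for region 0.0242.

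Csf2rb2, the beta chain of the interleukin 3 receptor, was the scarcest of the 5, and its means followed the same order as those of Csf2rb. They were 8.14 ± 1.98 CPM in the midbrain, 10.2 ± 1.70 CPM in the striatum and 7.74 ± 2.83 CPM in the PFC (SD, n = 12, 12 and 11), within ranges of 6.12 to 11.7, 7.42 to 12.7 and 3.78 to 12.7 CPM. The PFC samples were the most spread, and the highest of them was that of mouse 1. Without that sample the edgeR adjusted p for region was 0.0709, and the log2 fold change between striatum and PFC was 0.50. The striatum was above the midbrain in 10 of 12 mice by a log2 fold change of 0.33 (SE 0.156) and above the PFC in 9 of 11 mice by 0.40 (SE 0.160), but with no region effect neither pair was called. With mouse as a replicate block in place of sex, the region effect of Csf2rb2 passed the threshold (edgeR adjusted p = 0.025), and the striatum was called over the midbrain (log2 fold change 0.34) and over the PFC (0.47). In that paired fit 14% of all genes had a region effect. With the counts of both beta chain genes summed, the adjusted p for region was 0.0312, and the log2 fold changes of the striatum were 0.38 over the midbrain and 0.43 over the PFC. The sum does not depend on how reads were divided between the genes. It would still depend on whether reads matching both were dropped or counted for each.

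The share of Csf2rb2 in the sum of both beta chains, per kilobase, was 24.6% ± 3.89 (SD, n = 35). It was much alike in the regions, with means of 25.0% in the midbrain, 24.5% in the striatum and 24.3% in the PFC, and ran from 18.2% in the midbrain of mouse 11 to 34.0% in that of mouse 4. The ratio of the alpha and beta chain transcripts of the GM-CSF receptor varied more. Its size depends on the exon lengths used, 2871 bases for Csf2ra and 7277 for Csf2rb, but its order among regions does not. Per kilobase there was 3.28 ± 0.415 times as much Csf2ra as Csf2rb in the midbrain (SD, n = 12), 2.01 ± 0.288 times as much in the striatum (n = 12) and 1.94 ± 0.448 times as much in the PFC (n = 11). The ratio was highest in the midbrain in all 11 mice with every region, and the lowest midbrain sample, at 2.53, was above the highest of the striatum, at 2.45, but below the highest of the PFC, at 2.73. Between striatum and PFC it had no common direction, with the striatum higher in 5 of 11 mice. This ratio was formed after the values of both genes had been seen, so it is given without a test.

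Csf3r, the receptor for granulocyte colony-stimulating factor, was not called between regions. Its lowest, median and highest values were 200.3, 278.9 and 538.3 CPM in the midbrain, 223.3, 329.2 and 474.3 CPM in the striatum, and 221.7, 288.5 and 468.5 CPM in the PFC. Means were 314.8 ± 98.7, 333 ± 72.2 and 308.1 ± 81.3 CPM (SD, n = 12, 12 and 11). The log2 fold change was -0.03 for PFC over midbrain (95% interval -0.32 to 0.27), 0.08 for striatum over midbrain (-0.21 to 0.38) and 0.11 for striatum over PFC (-0.19 to 0.41). None of the 3 was called by edgeR, by DESeq2 or by limma-voom. Within mice, the striatum was above the midbrain in 8 of 12 and above the PFC in 9 of 11. With mouse as a replicate block, the edgeR adjusted p for region was 0.192, where 14% of all genes passed. In that fit the striatum exceeded the PFC by a log2 fold change of 0.16 (edgeR p = 0.0198, adjusted p = 0.192), which was not called. The PFC sample of mouse 1 had 247.8 CPM of Csf3r, within the range of the other PFC samples of mice 1 to 6.

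**Figure D2:**
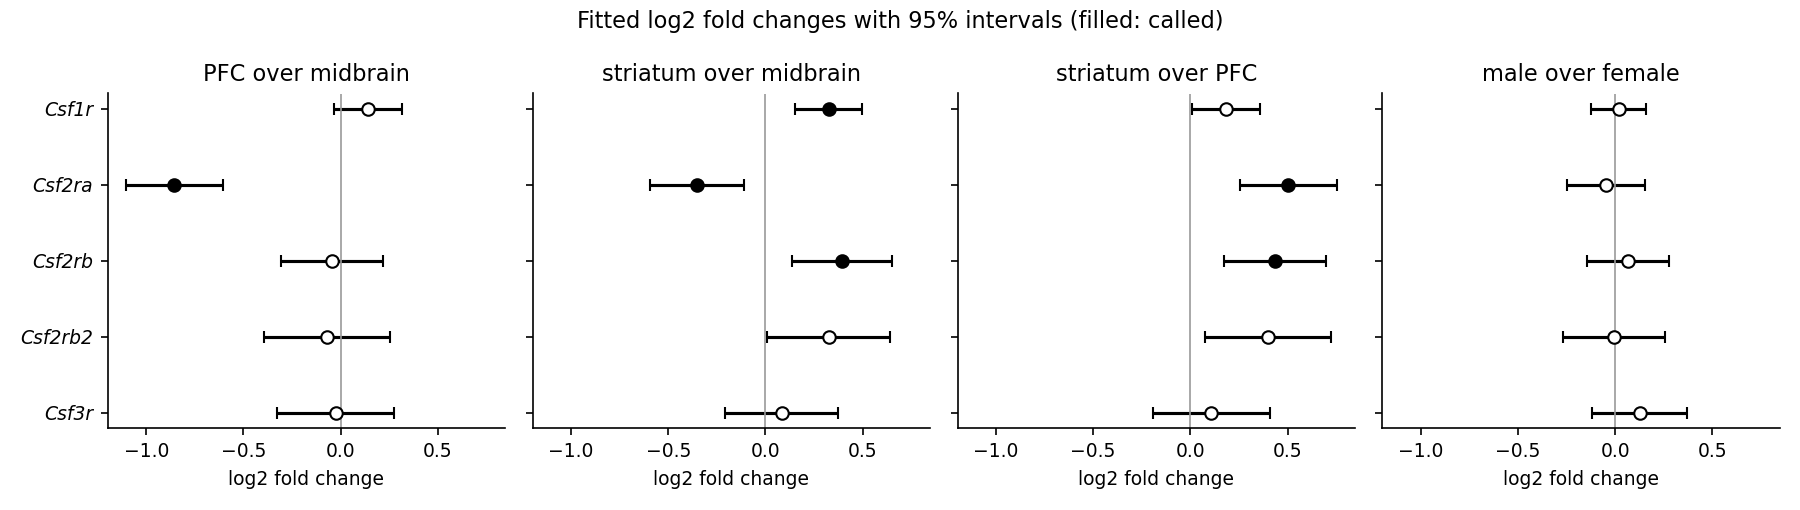
Fitted log2 fold changes (x axis) of the 5 receptor genes (y axis) in 4 comparisons, with 95% intervals from the edgeR fit and filled points for calls. Csf2ra at -0.85 in PFC over midbrain stands farthest from 0, and no interval for male over female excludes 0.

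Csf3r varied between mice. In mice 1 to 6 it ran from 200.3 to 357.1 CPM (mean 254.7 ± 36.7, SD, n = 17 samples) and in mice 7 to 12 from 288.5 to 538.3 CPM (mean 379.5 ± 67.1, n = 18 samples). In the midbrain the highest of mice 1 to 6 had 261.9 CPM and the lowest of mice 7 to 12 had 295.9 CPM. In the PFC these values were 254.3 and 288.5 CPM, whereas in the striatum the ranges overlapped. Mouse 11 had the highest value in each region.

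Means of the other receptors were also higher in mice 7 to 12, at 8560 against 7317 CPM for Csf1r, 43.1 against 33.0 CPM for Csf2ra, 46.6 against 35.3 CPM for Csf2rb and 9.33 against 8.08 CPM for Csf2rb2. In the midbrain, Csf2ra, Csf2rb and Csf3r had ranges that did not overlap between these sets of mice, which is 3 of 5 genes where 2.48% of all genes were likewise higher with no overlap. In the PFC it was Csf3r alone, against 2.07%, and in the striatum 0 of 5, against 0.48%. The labels give no litter, date or batch that divides the mice in this way. The division came from earlier results of these data, each set held 3 males and 3 females, and what differed between the sets was not tested.

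**Figure D3:**
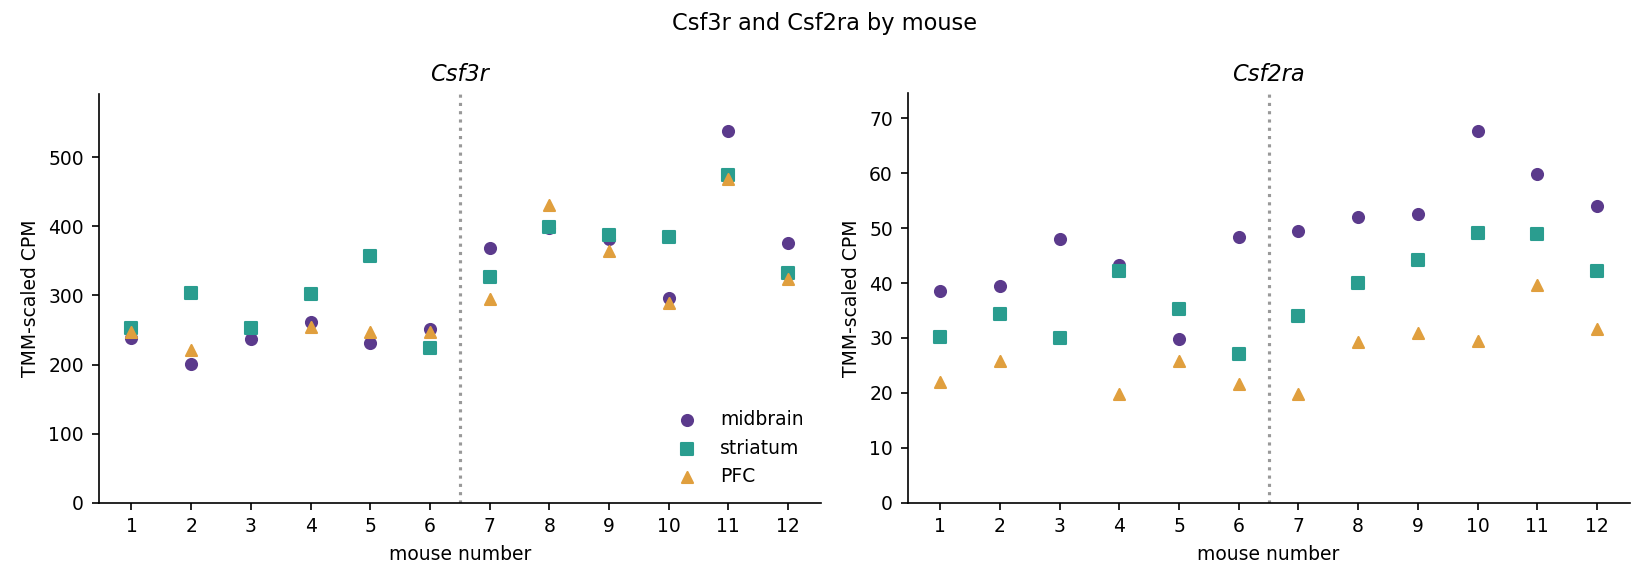
CPM of Csf3r (left) and Csf2ra (right) on y axes from 0 against mouse number on the x axis, 1 point per sample with a colour and shape for each region, and a dotted line between mice 6 and 7. In the midbrain every point right of the line is above every point left of it for both genes, while the order of regions within a mouse is clear for Csf2ra and mixed for Csf3r.

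As a description, the levels of the receptors were positively correlated over samples. The Pearson correlation of log2 CPM over 35 samples was 0.79 for Csf1r and Csf2rb, 0.74 for Csf2rb and Csf2rb2, 0.70 for Csf2rb and Csf3r and 0.25 for Csf1r and Csf2ra. With the region means removed, the last rose to 0.74, and the other 9 pairs ranged from 0.32 to 0.78. The 35 samples share 12 mice, which are not independent points, and the beta chain genes share sequence. Of 8602 other genes with a mean of at least 8 CPM, the 3 whose log2 CPM was most like that of Csf1r were Gaa (r = 0.93), Ptger1 (0.92) and Adam15 (0.92). For Csf2ra, Adamts1 (0.91) and Gm2a (0.90) were among them. Adamts1, which encodes a secreted protease, averaged 226 CPM in the midbrain, 141 CPM in the striatum and 88.8 CPM in the PFC, the same order as Csf2ra. Slc38a10 (0.88), Pcnx3 (0.86) and Mroh1 (0.85) were most like Csf2rb, Ttyh3 (0.77), Arid1b (0.75) and Prkcsh (0.74) most like Csf2rb2, and Unc93b1 (0.90), Ewsr1 (0.89) and Lrrc8d (0.89) most like Csf3r.

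Whether male and female mice differed was asked over all regions, within each region and as an interaction of region and sex. The samples of a sex came from 6 mice, and the edgeR fits treated samples of 1 mouse as independent. No receptor was called in any of these over all mice, by edgeR, DESeq2 or limma-voom, and none had an unadjusted p under 0.05 in the edgeR fits. The backgrounds were 4.13% of all genes for the effect of sex over regions, 4.84% within the midbrain, 2.28% within the striatum and 5.29% within the PFC, and 0% for the interaction (0 genes by edgeR with 1 by DESeq2, and 632 genes with an unadjusted p under 0.05 by edgeR). Over regions the log2 fold changes of males over females ran from -0.05 (Csf2ra, 95% interval -0.25 to 0.15) to 0.13 (Csf3r, -0.12 to 0.37). Csf1r had 8007 ± 1523 CPM in males (SD, n = 17 samples) and 7908 ± 1219 CPM in females (n = 18 samples), with an interval of -0.12 to 0.16 for the log2 difference. The widest intervals were those of Csf2rb2 within regions, with -0.26 (-0.71 to 0.18) in the midbrain and 0.27 (-0.19 to 0.74) in the PFC. In mice 1 to 6 alone the male PFC was called over the female PFC for Csf2rb (log2 fold change 0.51, edgeR p = 0.047, adjusted p = 0.696) and Csf2rb2 (1.03, p = 0.00499, adjusted p = 0.596). In that fit 6.99% of all genes were called, and of its 2 male PFC samples 1 is that of mouse 1. In mice 7 to 12 alone the values within the PFC were -0.07 for Csf2rb and -0.26 for Csf2rb2 (p = 0.691 and 0.264), neither called, and Csf2rb2 over all regions had -0.26 (edgeR p = 0.0473, adjusted p = 0.651), a fold change under 1.2. Without mouse 12 the male PFC was called for Csf2rb2 as well (0.49, p = 0.0371, adjusted p = 0.618).

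Of 6 ligands of these receptors, Csf1 and Il34 were in the table. Csf1 averaged 58.2 CPM, with no region effect (edgeR adjusted p = 0.977), at 58.2 ± 25.1 CPM in the midbrain, 60.6 ± 32.1 in the striatum and 55.7 ± 37.4 in the PFC (SD, n = 12, 12 and 11). Il34, the other ligand of CSF1R, was at 0 counts in 22 of 35 samples and at most 0.748 CPM. Csf2, Csf3, Il3 and Il5, which encode GM-CSF, granulocyte colony-stimulating factor and the interleukins of the common beta chain, had no row in the table. Of the alpha chains that pair with the beta chains, Il3ra had 1.09 ± 0.294 CPM in the midbrain, 0.577 ± 0.239 in the striatum and 0.543 ± 0.262 in the PFC (SD, n = 12, 12 and 11). It was lower than in the midbrain by a log2 fold change of -1.06 in the PFC (edgeR adjusted p = 0.0365) and -0.94 in the striatum (p = 0.00421, adjusted p = 0.0544), the direction of Csf2ra, but its region call held in 5 of 12 fits with 1 mouse left out. Il5ra had no row.

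Among receptors of the families these genes belong to, the kinases related to CSF1R were nearly absent, with means of 0.639 CPM for Flt3, 0.589 for Pdgfrb and 0.175 for Pdgfra, no call in any comparison and no row for Kit. Of the gp130 family, to which CSF3R is related, 4 of 5 listed genes had a row. Il6ra, the interleukin 6 receptor, had more transcript in the striatum, at 107.6 ± 16.8 CPM (SD, n = 12), than in the midbrain at 82.2 ± 14.0 (n = 12; log2 fold change 0.39, edgeR adjusted p = 0.0301) and the PFC at 81.6 ± 20.7 (n = 11; 0.40, p = 0.00156, adjusted p = 0.103). Its region call held in 9 of 12 fits with 1 mouse left out and was lost without mouse 2, 8 or 11 (adjusted p up to 0.0827). Il6st, the shared chain gp130, had 243.1, 254.8 and 198.9 CPM in midbrain, striatum and PFC (adjusted p = 0.0834 for region, and 0.00328 with the replicate block, where the PFC was called lower than both other regions). Lifr averaged 45.6 CPM and Osmr 0.0573 CPM, and neither had a region effect.

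Of 25 genes of CSF1R signalling, all measured, 4 had a region effect, where 8.89% of all genes did. Fgr, a kinase of the Src family found in myeloid cells, had 15.6 ± 5.15 CPM in the midbrain, 5.64 ± 2.75 in the striatum and 3.36 ± 1.73 in the PFC (SD, n = 12, 12 and 11). Its log2 fold change against the midbrain was -2.21 in the PFC (edgeR adjusted p = 2.18e-06) and -1.46 in the striatum (adjusted p = 0.000779), the order of Csf2ra, and the striatum exceeded the PFC by 0.75 (p = 0.0131, adjusted p = 0.257). Pik3r5, a regulatory subunit of PI3 kinase gamma, was higher in striatum than midbrain by 0.26 (adjusted p = 0.0322), but its region call held in 2 of 12 fits with 1 mouse left out. Dok3, an adaptor, passed for region (adjusted p = 0.0149) at 62.1, 54.3 and 52.1 CPM in midbrain, striatum and PFC, and its differences were under the minimum fold change. The median log2 fold change of the 25 genes was -0.03 for PFC over midbrain and -0.06 for striatum over midbrain, beside 0.01 and 0.01 for all genes. The abundant members Tyrobp (mean 1913 CPM), which encodes the adaptor DAP12, Lyn (702.1 CPM), Inpp5d (700.2 CPM), Ptpn6 (609.8 CPM) and Vav1 (329.4 CPM) had an adjusted p for region of 0.0571 to 0.905.

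Of 10 feedback inhibitors and STAT5 targets, 1 had a region effect, a share close to the 8.89% of all genes. Cish, an inhibitor that STAT5 induces, had 2.58 ± 1.12 CPM in the midbrain, 1.55 ± 0.402 in the striatum and 3.79 ± 1.91 in the PFC (SD, n = 12, 12 and 11). It was lower in the striatum than in the PFC by -1.29 (edgeR adjusted p = 0.00298) and than in the midbrain by -0.73 (adjusted p = 0.0405), and the PFC exceeded the midbrain by 0.56 (p = 0.019, adjusted p = 0.164). Socs3, an inhibitor of gp130 and CSF3R signalling, averaged 582.7 CPM with an adjusted p of 0.747. With the replicate block, Pim1, a kinase gene that STAT5 induces, passed for region as well (adjusted p = 0.0444) and was called lower in striatum than midbrain (log2 fold change -0.70). Myc also passed in that fit (edgeR adjusted p = 0.034), but was called higher in striatum than midbrain (0.39) and PFC (0.30). Both genes were named after their values were seen.

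Of 8 measured transcription factors that act on the receptor genes, Irf8 passed for region (adjusted p = 0.0149) at 1073, 955.3 and 967.5 CPM in midbrain, striatum and PFC, a difference under the minimum fold change. Spi1, which encodes PU.1, a factor that binds the Csf1r promoter, had 504.9, 523 and 521.7 CPM (adjusted p = 0.831). Cebpb averaged 411.2 CPM, with an adjusted p of 0.772. In the fit without a block, none of 8 genes for shedding and cleavage of receptors had a region effect, among them Adam17 (184.4 CPM), whose protease releases CSF1R from the cell surface (adjusted p = 0.955), Adam10 and Ncstn. With the replicate block 2 of the 8 did, where 14% of all genes did. Rhbdf1, a partner of ADAM17, was among them (edgeR adjusted p = 0.0239 for region). It was called higher in striatum than in midbrain (log2 fold change 0.45) and PFC (0.38).

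Over the 70 measured pathway genes of 79 listed, 9 had a region effect, where 8.89% of all genes did. Of the 70, 1 was higher and 3 were lower in the PFC against the midbrain, 2 were higher and 4 lower in striatum against midbrain, and 2 were higher and 1 lower in striatum against PFC, where 5.99%, 6.47% and 3.14% of all genes were called. With the replicate block, 18 had a region effect, where 14% of all genes did, among them Vav1 (adjusted p = 0.0037) and Myc (0.034), both called higher in striatum than midbrain, and Ptpn6 (0.00564) and Inpp5d (0.0232), whose differences stayed under the minimum fold change. Between the sexes 5 of the 70 were called, where 4.13% of all genes were, all higher in males: Il6st, Bcl2l1 (adjusted p = 0.0153 and 0.0144), Myc, Ccnd1 and Dok2. Their log2 fold changes were 0.43, 0.43, 0.48, 0.34 and 0.91. Bcl2l1, Myc and Ccnd1 were 3 of the 10 listed feedback inhibitors and STAT5 targets, and the others of that list were not called. With mouse as a random effect (limma-voom), which allows for samples that share an animal, all 5 were still called by the unadjusted p, where 2.67% of all genes were. The adjusted p in that fit was 0.0622 for Il6st, 0.0504 for Bcl2l1, 0.318 for Myc, 0.482 for Ccnd1 and 0.831 for Dok2. Bcl2l1, Myc, Ccnd1 and Dok2 were chosen for their calls after their values were seen.

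**Figure D4:**
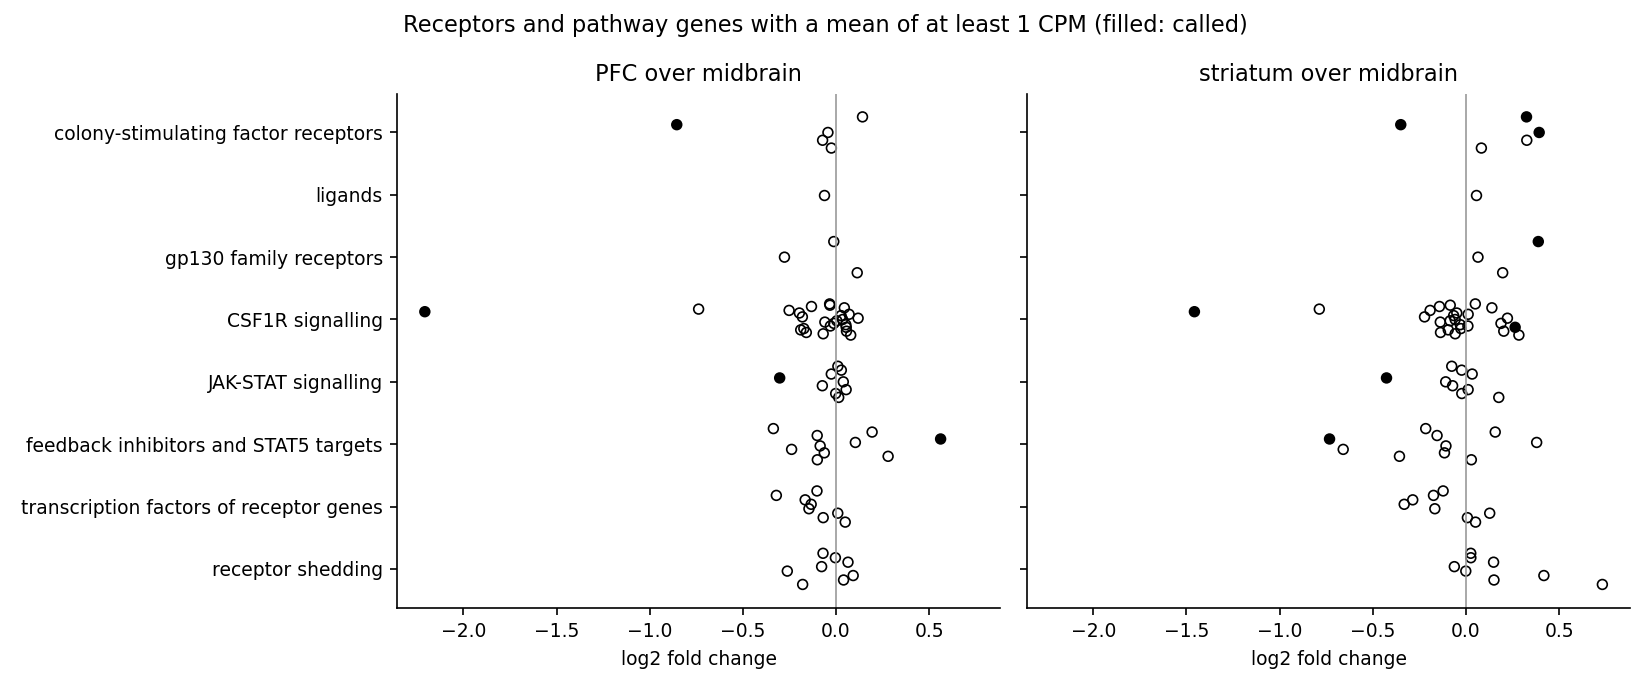
Log2 fold changes of PFC over midbrain (left) and striatum over midbrain (right) on the x axis for the receptor genes and each list of pathway genes with a mean of at least 1 CPM (rows), 1 point per gene and filled where called. Most points of each list lie near 0, and Fgr at -2.21 (left) and -1.46 (right) lies farthest out.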

How the data were processed

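RNA of sorted tdTomato-positive microglia was amplified with the Smart-Seq HT kit, made into Nextera XT libraries and sequenced as paired reads of 50 bases. The authors trimmed the reads, aligned them with HISAT2 to GRCm38 and deposited raw counts per gene, kept where a gene had at least 1 CPM in a subgroup of sex and region. The counter and its handling of strand and of reads matching several genes are not given in the sources used here. The deposited counts ran from 37680501 to 54131421 per sample, and intervals cover these samples only.

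Counts of 21236 genes were fitted in R 4.3.3 by robust quasi-likelihood F-tests of edgeR 4.0.16, with TMM scaling. CPM were computed here, per kilobase of exon from GENCODE M21 where genes are compared. Region and sex were additive terms over all 35 samples, and region by sex terms gave the sex effects within regions and the interaction. Regions and interactions were called with an adjusted p under 0.05, pairs of regions also with an unadjusted p under 0.05 and a fold change over 1.2, and sex with an unadjusted p under 0.05 and the same fold change. The step was tested on simulated data. DESeq2 1.42.0, limma-voom (limma 3.58.1, in which samples of 1 mouse had a correlation of 0.168), other filters and subsets of samples were alternatives.

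The same mouse number was taken to mark the same animal. Deviations from group means over 8623 genes had a mean correlation of 0.347 in 34 pairs of samples of 1 mouse (minimum -0.266) and -0.0675 in 170 other pairs, and mouse was used as a replicate block in an alternative fit.

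The receptors and the gene lists were chosen with earlier results of these data known. All receptors are described. Every measured gene of a list of at most 8 could be named, and of longer lists up to 6 genes with a region effect and those with a mean over 300 CPM. The 3 genes most like each receptor are given by Pearson correlation of log2 CPM. Some genes that this rule names are not reported here.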

Additional observations from a re-analysis of the deposited data

How the results depend on the processing

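Of the values and tests of single receptors recomputed under the alternatives, 1046 kept their side of the threshold, 42 lost a call and 12 gained one. Of those with a call in either fit, 0 changed direction. Some with a call in neither fit did change sign. For PFC over midbrain, Csf3r had a log2 fold change of -0.03 in the main fit and 0.04 in mice 1 to 6. With mice 1 to 6 only, 1 receptor had a region effect, 1 was called between striatum and midbrain, 1 between striatum and PFC and 2 between the sexes within the PFC. With adjusted p-values for pairs, 1 was called between striatum and PFC. Between striatum and midbrain Csf2ra was then no longer called (edgeR adjusted p = 0.0664), and Csf2rb stayed just under the threshold (0.0499). Leaving out each mouse in turn gave 1 to 3 receptors for region, 1 for PFC and midbrain, 1 to 3 for striatum and midbrain, 1 to 2 for striatum and PFC, 0 to 1 for sex within the PFC and 0 for the other sex comparisons. With the replicate block, 4 receptors had a region effect, the added one being Csf2rb2. Over all genes, 1888 had a region effect, against 2977 with the replicate block, 2972 with limma-voom, 512 in mice 1 to 6 and 1183 in mice 7 to 12. Calls between PFC and midbrain fell from 1271 to 397 in mice 1 to 6, and those between striatum and midbrain from 1375 to 411. Between striatum and PFC 667 genes were called, against 1032 with the block, 1200 with limma-voom, 1009 with the sets of mice as a covariate, and 279 and 394 in mice 1 to 6 and 7 to 12. For sex 878 genes were called, against 566 with limma-voom and 459 with 10 counts in every sample. Within midbrain, striatum and PFC 1027, 484 and 1124 genes were called, against 660, 306 and 741 after filterByExpr and 457, 258 and 501 with 10 counts in every sample. Fewer genes or samples were tested in the filtered and subset fits. Otherwise the cause was not tested. The fits without the PFC sample of mouse 1 and without the midbrain sample of mouse 6 were added after seeing the data and kept the number of receptors called for region and for each pair of regions. The means of Il34 and Osmr lie near the level of 3 counts, 0.0561 to 0.0789 CPM.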
